A study of Rattus norvegicus with 12 samples.

Results

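The 10 genes described here encode enzymes of glycolysis and lactate metabolism and were followed across 4 populations of rat neurons, with the question of which isozyme of each step the neurons of a region carried. The genes were taken by name: *Hk1*, *Gpi*, *Pfkp*, *Pfkm*, *Aldoa*, *Aldoc*, *Eno1*, *Eno2*, *Ldha* and *Ldhb*, which are 10 of the 10411 genes to which the array table gives a probe set of their own. They are represented by 14 of the 15923 probe sets on the array, and 10 of these 14, 1 for each gene, passed the filter on low signals. The other 4 are a second *Pfkm* probe set, above the array median on 4 of 12 arrays, and 3 *Hk1* control probe sets with signals of at most 116.6, all below the array median on each array. Neurons were captured by laser from frozen brain sections of untreated Fisher 344/BN F1 rats aged 6 months, and no group received any treatment. The vulnerable group (VUL) comprises the CA1 pyramidal layer of the hippocampus and the granule cell layer of the cerebellum (CbG), and the resistant group (RES) the CA3 pyramidal layer and the frontal cortex, layers IV to VI (CTX). Each region was measured on 3 Affymetrix RAE230A arrays, 1 per replicate number, so that VUL and RES hold 6 arrays each. The names VUL and RES refer to sensitivity to oxidative stress and were given to whole regions, so that the comparison of VUL with RES cannot be told apart from the comparison of these particular regions.

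Glycolysis splits glucose into pyruvate in the cytosol, and most of its steps can be carried out by several isozymes encoded by separate genes. Neurons are known for neuron-specific enolase (*Eno2*) beside the ubiquitous enolase *Eno1*. Aldolase C (*Aldoc*) is the brain form beside the widespread aldolase A (*Aldoa*), and in the brain it is known as a product of astrocytes and of a subset of Purkinje cells. Lactate dehydrogenase is a tetramer of A and B subunits, of which the A form (*Ldha*) is classically associated with making lactate and the B form (*Ldhb*) with using it. Phosphofructokinase, the committed step, has a muscle form (*Pfkm*) and a platelet form (*Pfkp*), both found in the brain. Hexokinase 1 (*Hk1*) is the main hexokinase of the brain, and *Gpi* converts glucose 6-phosphate into fructose 6-phosphate.

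Genes outside the 10 put the labels of 2 arrays in doubt. The summed signal of 5 granule cell marker genes was 19549.4 and 24911.1 on the arrays of CbG replicates 1 and 2, 21975.4 on the array labelled CA3 replicate 3, and between 267.4 and 1863.7 on the other 9, among them the array labelled CbG replicate 3. That array correlated best with CA3 replicate 1 (r = 0.933 across probe sets), and that labelled CA3 replicate 3 correlated best with CbG replicate 1 (r = 0.932). Results are therefore given as labelled, without both arrays (10 arrays), and with the 2 labels exchanged. The array labelled CbG replicate 3, counted as CA3 after the exchange, also carried CA1 markers. The summed signal of 5 of them was 7520.4 on it, against 1929.9 and 723.4 on CA3 replicates 1 and 2. It was 28174.4 to 36265.4 in CA1 and 5149.5 to 5510.1 in CTX. The part of this signal in the exchanged results was not tested. The CbG replicate 2 array also stood apart. The summed signal of 5 Purkinje cell markers was 37255.5 on it, against 15789.4 on CbG replicate 1 and between 2606.5 and 8629.7 on the other 10 arrays. In CA1, with sums of 8059.5 to 8629.7, *Itpr1*, which is among the 5, alone read 7071.7, 7116.3 and 6985.6. Captured cells are bulk samples, and fewer cells of a type cannot be told apart from less RNA per cell.

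Across the 12 arrays, whatever their labels, 1 gene of each isozyme pair spread widely and the other little. The signals of *Eno1*, *Ldha*, *Pfkp* and *Aldoc* had standard deviations between 0.69 and 0.92 on the log2 scale and spanned 3.92-fold to 9.78-fold between the lowest and highest array. Their partners *Eno2*, *Ldhb*, *Pfkm* and *Aldoa* had standard deviations between 0.21 and 0.37 and spanned 1.63-fold to 2.07-fold. In any pair 1 gene has the larger spread, and the genes were sorted by it here. The median standard deviation was 0.5 over the 10 genes, and 0.44 over the 7535 probe sets tested, with 5 of the 10 genes above the latter. The 2 genes of the entry steps lay on either side of this median, *Hk1* at 0.63 and *Gpi* at 0.35. The regions at the extremes differed from pair to pair: *Pfkp* was lowest in CA1 and highest in CTX, *Aldoc* was highest on a CbG array, and *Eno1* and *Ldha* had their 2 highest signals in CA3 and their lowest in CbG.

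**Figure D1:**
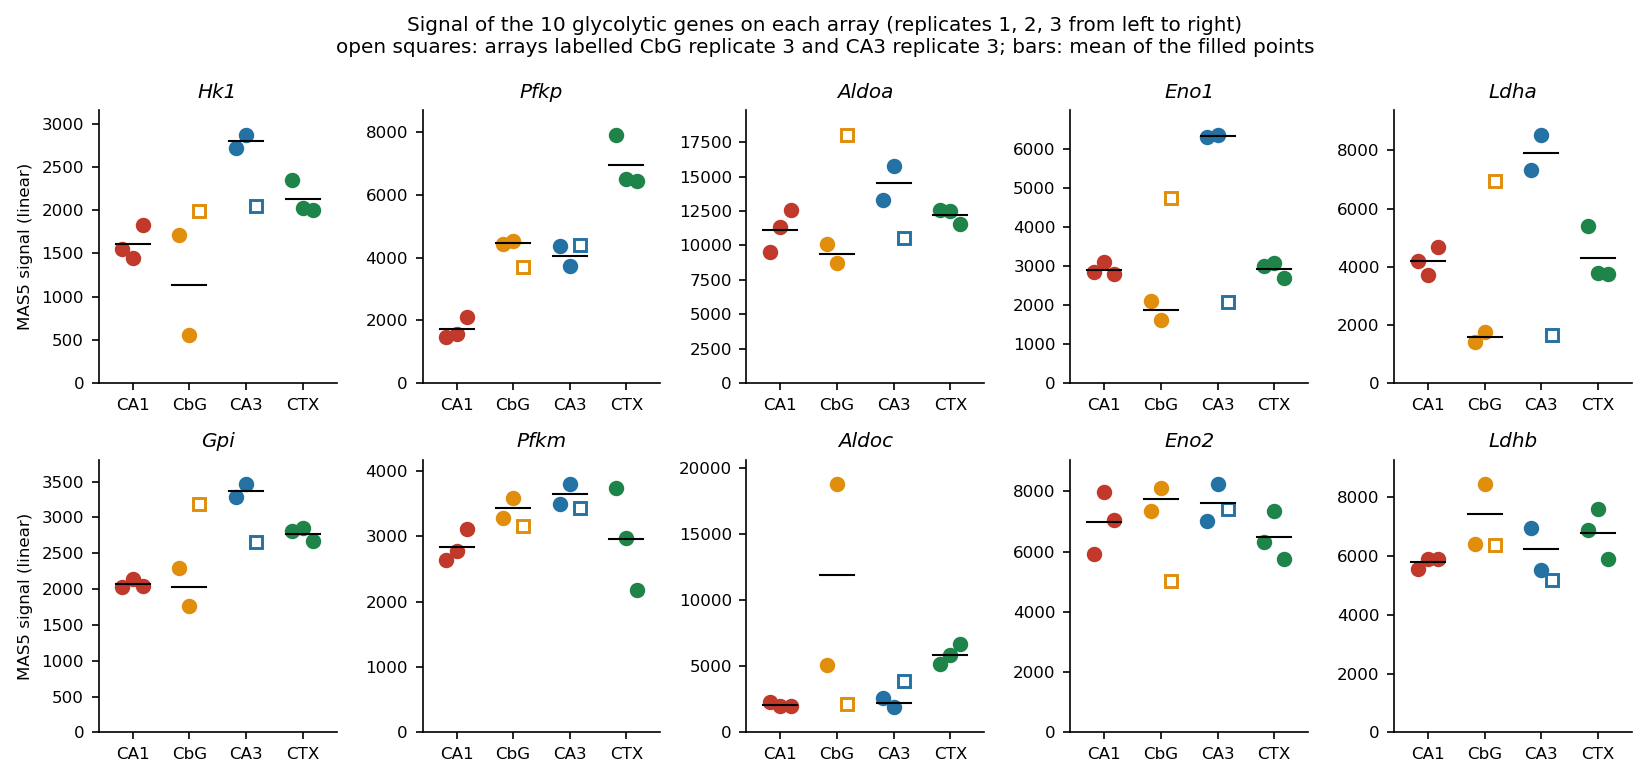
Linear MAS5 signal of the 10 genes (vertical axes, starting at 0) in CA1, CbG, CA3 and CTX, 1 point per array, with the array labelled CbG replicate 3 and that labelled CA3 replicate 3 as open squares at their labelled place and bars for the mean of the filled points. In the panel of *Ldha* each open square lies nearest the filled points of the other region, and in that of *Eno1* the open square of CbG, 4736.4, lies between the CA3 points and the rest, and in the panel of *Pfkp* the CA1 points, up to 2103.0, lie below all others.

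At the phosphofructokinase step the order of the regions was the same as labelled, exchanged and over 10 arrays. *Pfkp* had signals of 1474.3, 1578.2 and 2103.0 in CA1, 4433.2, 4520.0 and 3693.7 in CbG, 4388.4, 3734.9 and 4399.0 in CA3, and 7915.0, 6499.6 and 6445.4 in CTX. All 3 CA1 arrays lay below every other array and all 3 CTX arrays above every other, while CbG and CA3 overlapped as labelled. The means were 1718 ± 337 in CA1, 4216 ± 454 in CbG, 4174 ± 380 in CA3 and 6953 ± 833 in CTX (SD, n = 3 each). As labelled, *Pfkp* was the 1 gene of the 10 that differed among the 4 regions (limma F test, adjusted p = 0.0242), where 3.2% of all probe sets passed. It was lower in CA1 than in CA3 by a log2 difference of -1.31 ± 0.22 (SE, limma, adjusted p = 0.0364, lower in 3 of 3 pairs of equal replicate number), where 0.677% of all probe sets were called lower and 0.624% higher. Both calls as labelled were lost when any CA1 array, CA3 replicate 1 or 2, or any CTX array was left out, and the second also without CbG replicate 1, with adjusted p up to 0.134 and 0.205 by limma and differences between CA1 and CA3 of -1.54 to -1.17.

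After exchange of the 2 labels the difference between CA1 and CA3 was -1.22 ± 0.21 (limma, adjusted p = 0.00143), and over 10 arrays -1.35 ± 0.25 (limma, adjusted p = 0.00464). Exchanged, the call was kept when each array was left out in turn (limma, adjusted p up to 0.0137). *Pfkp* signal in CbG relative to CTX was -0.55 ± 0.22 on the log2 scale as labelled (limma, adjusted p = 0.289) and -0.45 ± 0.21 with the labels exchanged (limma, adjusted p = 0.101), so that neither passed. Oligodendrocyte markers moved with both ends of the *Pfkp* pattern. The summed signal of 7 of them was between 29077.7 and 44398.8 in CTX, against 4333.3 to 6784.7 in CA1 and 10074.4 to 20790.2 on the other 6 arrays. Of the 5 tested, 1 was called lower in CA1 than in CA3 as labelled and 3 exchanged, beside 0.677% and 6.0% of all probe sets. In both settings 0 were called higher, beside 0.624% and 7.51%. Other markers of non-neuronal cells were also higher in CTX than in CA1. The sums were 2346.0 to 4138.8 against 477.2 to 944.1 for 5 endothelial markers, and 890.9 to 1500.4 against 346.8 to 651.2 for 7 microglia markers. For 11 astrocyte markers they were 20811.2 to 38795.5 against 12617.3 to 17319.0. The part of these cells in the *Pfkp* result was not tested.

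The muscle form *Pfkm* had signals of 2635.8, 2776.4 and 3107.7 in CA1, 3275.2, 3583.1 and 3153.6 in CbG, 3491.3, 3792.1 and 3434.1 in CA3, and 3737.8, 2977.8 and 2171.5 in CTX. The CTX arrays alone spanned almost the whole range, and the F test was not passed (limma, adjusted p = 0.332 as labelled and 0.131 exchanged). Each isozyme ratio is given as the log2 signal of the first gene minus that of the second on the same array, a difference that cancels the scale of the array. Because 2 probe sets bind with different strength, a ratio above or below 0 does not say which isozyme is more abundant, and only its change between regions is read. The *Pfkp* to *Pfkm* ratio averaged -0.74 ± 0.15 in CA1, 0.33 ± 0.1 in CbG, 0.22 ± 0.21 in CA3 and 1.26 ± 0.27 in CTX (SD, n = 3 each). CA1 and CTX thus lay 2.0 apart on the log2 scale, with no overlap with any other region, and the regional difference passed (exact permutation within replicate numbers, p = 0.00521, adjusted over 4 ratios p = 0.0208). With the labels exchanged its p was 0.00174, which is the smallest that the 13824 exact permutations can give.

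VUL minus RES was -0.94 for this ratio, with VUL arrays between -0.84 and 0.44 and RES arrays between -0.02 and 1.57. The ranges overlapped, and the two-sided exact permutation test gave p = 0.0556 (adjusted p = 0.222), or 0.0741 with the labels exchanged (adjusted p = 0.0988). The ratio was lower in CA1 than in CA3 in 3 of 3 replicate numbers, by -1.17, -0.79 and -0.92, and lower in CbG than in CTX in 3 of 3, by -0.65, -0.79 and -1.34. A single pair of regions over 3 replicate numbers cannot reach an exact p below 0.25, and none is given. With the second *Pfkm* probe set, which failed the filter on low signals, the 4 regions did not pass (exact permutation, p = 0.0608, adjusted p = 0.243).

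**Figure D2:**
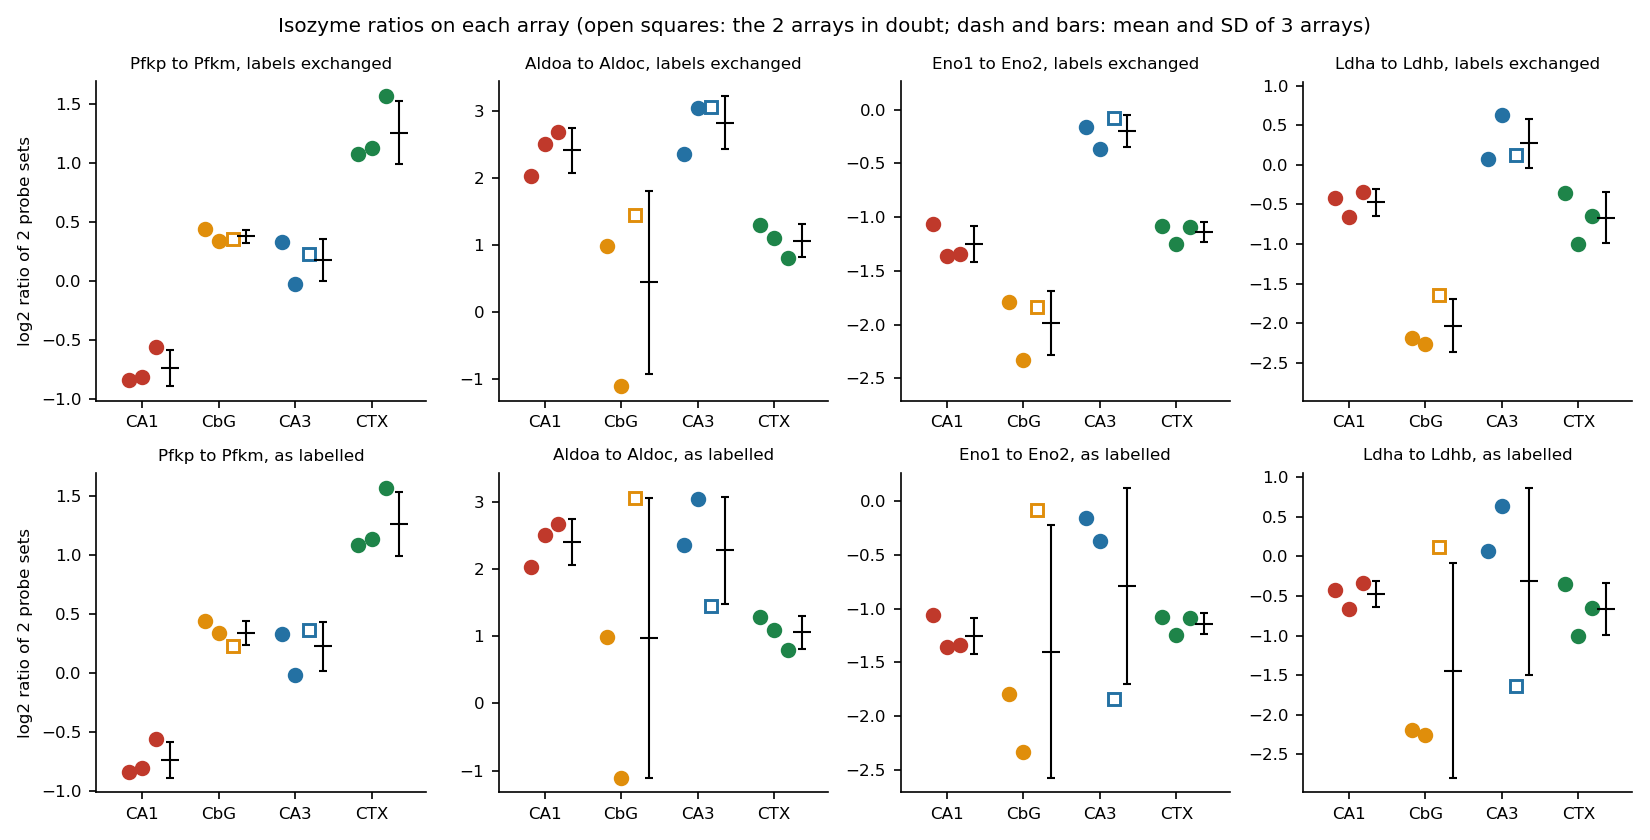
Log2 ratio of the 2 probe sets of each isozyme pair on each array (vertical axes) by region, with the 2 labels exchanged (upper row) and as labelled (lower row); open squares are the 2 doubtful arrays, and dashes with bars the mean and SD of 3 arrays. *Pfkp* to *Pfkm* averages -0.74 in CA1 and 1.26 in CTX in both rows, whereas the *Eno1* to *Eno2* ratio of CA3 has an SD of 0.91 as labelled and 0.15 exchanged.

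*Eno1* spanned 3.92-fold over the 12 arrays and *Eno2* 1.64-fold. *Eno1* had signals of 2835.8, 3094.2 and 2792.2 in CA1, 2113.2 and 1620.4 in CbG replicates 1 and 2, 6295.4 and 6356.7 in CA3 replicates 1 and 2, and 2988.2, 3088.9 and 2702.6 in CTX. The array labelled CbG replicate 3 read 4736.4 and that labelled CA3 replicate 3 read 2075.8. The 3 highest arrays were thus the first 2 of CA3 and the one labelled CbG replicate 3, and CA1 and CTX overlapped between them and the lowest 3. As labelled, *Eno1* did not pass the F test (limma, adjusted p = 0.49). Exchanged, it did (limma, adjusted p = 4.88e-05), with means of 2907 ± 163 in CA1, 1936 ± 274 in CbG, 5796 ± 918 in CA3 and 2927 ± 200 in CTX (SD, n = 3 each), and CA1 and CTX as the only neighbors in this order whose ranges overlapped. Its log2 difference between CA1 and CA3 was then -0.99 ± 0.2 (limma, adjusted p = 0.00475), against -0.6 ± 0.53 as labelled (limma, adjusted p = 0.746). The exchanged calls of *Eno1* were kept when each array was left out in turn, and CbG minus CTX was called in addition without the array labelled CA3 replicate 3 (limma, adjusted p = 0.0461).

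Neuron-specific *Eno2* ranged from 5909.7 to 7961.0 in CA1, from 5020.9 to 8122.3 in CbG, from 7018.3 to 8224.3 in CA3 and from 5764.0 to 7341.2 in CTX. All 4 ranges overlapped, and the F test was passed neither as labelled nor exchanged (limma, adjusted p = 0.255 and 0.184). The *Eno1* to *Eno2* ratio followed *Eno1*. On exchanged labels it averaged -1.25 ± 0.17 in CA1, -1.99 ± 0.3 in CbG, -0.2 ± 0.15 in CA3 and -1.14 ± 0.1 in CTX (SD, n = 3 each). CA3 lay above and CbG below all other arrays, a range of 1.78 between region means (exact permutation, p = 0.00347, adjusted p = 0.00463). As labelled the range was 0.61 (exact permutation, p = 0.776, adjusted p = 0.776). The ratio was lower in CA1 than in CA3 by -0.9 and -0.99 in replicates 1 and 2, and lower in CbG than in CTX by -0.72 and -1.08. In replicate 3 the difference between CA1 and CA3 was 0.5 as labelled and -1.25 exchanged. VUL minus RES was -0.36 as labelled (exact permutation, p = 0.398, adjusted p = 0.617). Exchanged, it was -0.95 (exact permutation, p = 0.0185, adjusted p = 0.0741, or 0.0346 without the replicate block). Over 10 arrays it was also -0.95, and passed (exact permutation, p = 0.00347, adjusted p = 0.0139). With CbG replicate 2 left out it did not pass exchanged (-0.89, exact permutation, p = 0.0231, adjusted p = 0.0926). It was -0.88 over the remaining 9 arrays, which hold 1 CbG array.

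Lactate dehydrogenase A behaved as *Eno1* did, with which it correlated at r = 0.907 over the 12 arrays, which share 4 regions. *Ldha* had signals of 4180.9, 3721.0 and 4671.8 in CA1, 1407.3 and 1758.2 in CbG replicates 1 and 2, 7316.3 and 8527.3 in CA3 replicates 1 and 2, and 5399.3, 3787.3 and 3759.5 in CTX. The arrays labelled CbG replicate 3 and CA3 replicate 3 read 6949.4 and 1665.1. The array labelled CA3 replicate 3 therefore lay between the 2 undisputed CbG arrays, and that labelled CbG replicate 3 just below the 2 undisputed CA3 arrays. As labelled the F test was not passed (limma, adjusted p = 0.695). Exchanged, it was (limma, adjusted p = 1.13e-05), with means of 4191 ± 475 in CA1, 1610 ± 182 in CbG, 7598 ± 826 in CA3 and 4315 ± 939 in CTX (SD, n = 3 each).

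*Ldha* was the 1 gene of the 10 that then passed in both pairs of regions. Its log2 difference was -0.87 ± 0.23 for CA1 minus CA3 (limma, adjusted p = 0.0224) and -1.22 ± 0.23 for CbG minus CTX (limma, adjusted p = 0.00109), each lower in 3 of 3 replicate numbers. Over 10 arrays these were -0.97 ± 0.27 (limma, adjusted p = 0.0436) and -1.3 ± 0.27 (limma, adjusted p = 0.00483). As labelled they were -0.19 ± 0.77 and -0.54 ± 0.77, and neither passed (limma, adjusted p = 0.959 and 0.773). Exchanged, the call for CA1 minus CA3 was lost without CA1 replicate 1 or 2 or CA3 replicate 1 or 2 (limma, adjusted p up to 0.12, differences of -1.03 to -0.71), and that for CbG minus CTX was kept without any 1 array.

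The B subunit gene *Ldhb* ranged from 5576.3 to 5903.3 in CA1, from 6378.9 to 8436.1 in CbG, from 5175.2 to 6961.4 in CA3 and from 5900.5 to 7597.5 in CTX. Neighboring regions overlapped, and its F test gave limma adjusted p = 0.831 as labelled and 0.762 exchanged. The *Ldha* to *Ldhb* ratio averaged -0.47 ± 0.17 in CA1, -2.03 ± 0.34 in CbG, 0.28 ± 0.31 in CA3 and -0.67 ± 0.33 in CTX with the labels exchanged (SD, n = 3 each). The CbG arrays were the lowest 3 and the CA3 arrays the highest 3, 2.3 apart in their means (exact permutation, p = 0.00347, adjusted p = 0.00463), while CA1 and CTX overlapped. As labelled the range of the region means was 1.13 (exact permutation, p = 0.571, adjusted p = 0.762). VUL minus RES was -1.05 with the labels exchanged (exact permutation, p = 0.0741, adjusted p = 0.0988) and -0.47 as labelled (p = 0.463 by the same exact test, adjusted p = 0.617).

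The stretches of genome before the starts of these 4 genes are shown because 1 isozyme of each pair varied more than the other on these arrays. They are the 250 bases upstream of each RefSeq start in the GRCr8 build, written along the gene's strand, with each ACGTG or its reverse complement CACGT in capitals. These letters are a form of the core of the hypoxia response element, which HIF-1 is known to bind. They overlap the E-box CACGTG, which holds both. Other forms of the core were not searched, so that a window without capitals may still hold one.
*Ldha* (chr1:106507842-106508091, plus strand): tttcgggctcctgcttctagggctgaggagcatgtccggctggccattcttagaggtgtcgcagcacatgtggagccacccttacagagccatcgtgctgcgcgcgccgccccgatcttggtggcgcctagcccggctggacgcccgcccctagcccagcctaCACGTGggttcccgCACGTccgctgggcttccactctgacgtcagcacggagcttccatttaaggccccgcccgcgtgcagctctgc
*Ldhb* (chr4:177177409-177177658, minus strand): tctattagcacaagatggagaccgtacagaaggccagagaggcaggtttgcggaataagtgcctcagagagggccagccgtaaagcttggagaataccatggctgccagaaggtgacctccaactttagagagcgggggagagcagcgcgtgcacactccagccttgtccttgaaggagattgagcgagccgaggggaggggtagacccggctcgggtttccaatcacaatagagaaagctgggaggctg
*Eno1*, first start (chr5:166002617-166002866, plus strand): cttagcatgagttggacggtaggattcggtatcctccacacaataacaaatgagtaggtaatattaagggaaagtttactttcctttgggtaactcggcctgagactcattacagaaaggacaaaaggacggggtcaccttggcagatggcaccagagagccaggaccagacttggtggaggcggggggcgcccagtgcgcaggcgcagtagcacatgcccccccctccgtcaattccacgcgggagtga
*Eno1*, other start (chr5:166003111-166003360, plus strand): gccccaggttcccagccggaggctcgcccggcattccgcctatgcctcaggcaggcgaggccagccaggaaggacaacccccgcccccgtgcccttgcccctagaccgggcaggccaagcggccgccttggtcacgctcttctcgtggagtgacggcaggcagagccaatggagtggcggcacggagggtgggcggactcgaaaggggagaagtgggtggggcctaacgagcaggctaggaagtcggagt
*Eno2* (chr4:159267221-159267470, minus strand): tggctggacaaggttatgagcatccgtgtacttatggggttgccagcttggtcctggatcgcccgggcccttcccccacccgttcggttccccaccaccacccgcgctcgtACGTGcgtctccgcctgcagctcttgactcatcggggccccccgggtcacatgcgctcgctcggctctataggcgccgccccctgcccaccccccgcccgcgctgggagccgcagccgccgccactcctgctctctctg

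The *Ldha* window held 3 matches counted on both strands, of which 2 share the E-box, the *Eno2* window held 1, and the *Ldhb* and both *Eno1* windows held 0. All 10 genes had an entry, with 14 windows in all. A match was held by 6 of the 14 windows, from 6 genes. This is a larger share than the 16.6% of the 33469 promoter windows of the same length, and the difference was not tested. Matches to these letters did not separate the varying from the steady isozymes, and other forms of the core were not counted. A match describes letters in this window and no more.

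Aldolase C had the widest span of all 10 genes, 9.78-fold. *Aldoc* read 2326.8, 1993.4 and 1962.2 in CA1, 5085.7, 18767.8 and 2158.3 in CbG, 2604.5, 1919.2 and 3869.4 in CA3, and 5145.8, 5864.3 and 6657.1 in CTX. CA1 and the undisputed CA3 arrays were low and overlapped, CTX lay above both, and CbG replicate 2 was far above every other array. As labelled the F test was not passed (limma, adjusted p = 0.356). Exchanged, it was (limma, adjusted p = 0.00501), and with CbG replicate 2 also left out the adjusted p was 0.000156 by limma. In that last setting the largest difference between 2 region means was 1.17 on the log2 scale, against 1.64 with the array included.

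The 2 cell types known for aldolase C were read from their markers on the same arrays. On CbG replicate 2, *Calb1*, *Car8* and *Pcp2*, 3 genes of Purkinje cells, read 12798.2, 9876.9 and 3601.6, against 4181.2, 3849.7 and 1883.2 on CbG replicate 1 and 72.0, 115.0 and 294.9 on the array labelled CA3 replicate 3. The summed signal of 11 astrocyte markers was between 20811.2 and 38795.5 in CTX and 28197.5 and 31744.7 in CbG replicates 1 and 2. It was 12617.3 to 17319.0 in CA1 and 10089.2 to 21993.7 in CA3 as labelled. The markers did not move together. Exchanged, 3 of 9 tested were called higher in CbG than in CTX (*Slc4a4*, *Aqp4*, *Gfap*) and 2 lower (*Mlc1*, *Ntsr2*), beside 20.9% and 13.0% of all probe sets. *Ntsr2* read 426.1 and 483.3 on CbG replicates 1 and 2, below all CA1 arrays (571.5 to 761.9). The astrocyte glutamate transporter *Slc1a2* read between 30.1 and 164.3 on all arrays. Neither list was tested for its part in the *Aldoc* result.

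*Aldoa* had signals of 9529.3, 11323.3 and 12552.6 in CA1, 10089.5, 8687.9 and 18015.5 in CbG, 13328.6, 15755.1 and 10536.9 in CA3, and 12584.8, 12530.8 and 11586.1 in CTX. The array labelled CbG replicate 3 was the highest of all and the 2 undisputed CA3 arrays followed it. With the labels exchanged the means were 11135 ± 1520 in CA1, 9771 ± 965 in CbG, 15700 ± 2344 in CA3 and 12234 ± 562 in CTX (SD, n = 3 each), and the F test was passed (limma, adjusted p = 0.00729), which it was not as labelled (limma, adjusted p = 0.71). *Aldoa* was thus the partner gene of a pair that did differ among regions, if less widely than *Aldoc*. The *Aldoa* to *Aldoc* ratio averaged 2.41 ± 0.33 in CA1, 0.44 ± 1.36 in CbG, 2.82 ± 0.4 in CA3 and 1.06 ± 0.25 in CTX with the labels exchanged (SD, n = 3 each). The hippocampal arrays, between 2.03 and 3.06, lay above all CbG and CTX arrays, between -1.11 and 1.45.

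The regional difference of this ratio passed with the labels exchanged (exact permutation, p = 0.0156, adjusted p = 0.0156) and not as labelled (exact permutation, p = 0.413, adjusted p = 0.762). The exchanged call was lost without CA3 replicate 2 (exact permutation, adjusted p = 0.0608), and as labelled the ratio passed without CbG replicate 3, at a range of 2.6 (exact permutation, adjusted p = 0.0417). Exchanged and without CbG replicate 2, the range of region means was 1.76 (exact permutation, p = 0.00694, adjusted p = 0.00694). Between VUL and RES the ratio differed by 0.02 as labelled (exact permutation, p = 0.981, adjusted p = 0.981) and by -0.52 exchanged (exact permutation, p = 0.519, adjusted p = 0.519). Each of the 2 groups joins a hippocampal region with one outside the hippocampus, and the high and low ratios lay within both groups.

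**Figure D3:**
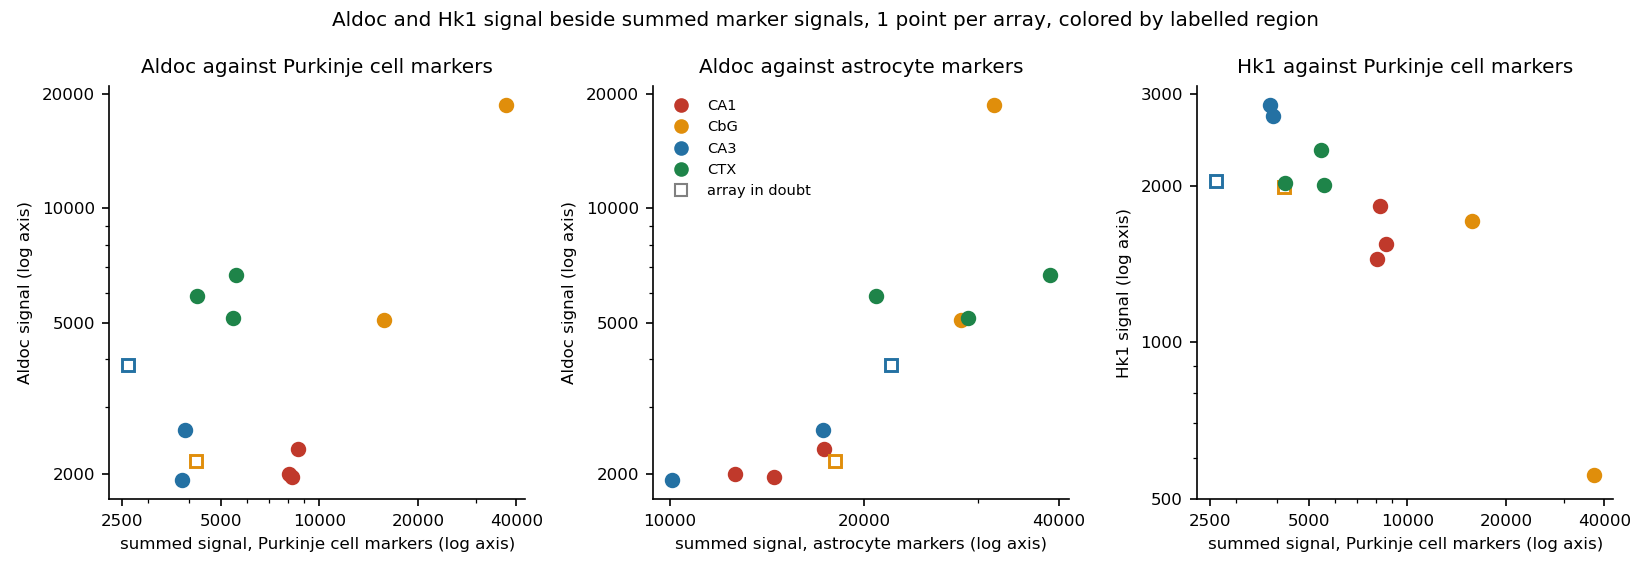
*Aldoc* signal against the summed signals of 5 Purkinje cell and 11 astrocyte markers, and *Hk1* signal against the Purkinje cell markers, 1 point per array on log axes, colored by labelled region with the 2 doubtful arrays open. CbG replicate 2 is the point with the highest Purkinje cell marker sum, 37255.5, the highest *Aldoc*, 18767.8, and the lowest *Hk1*, 556.0.

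Hexokinase 1 and *Gpi* have no isozyme partner here. *Hk1* read 1546.3, 1449.2 and 1828.1 in CA1, 1709.8, 556.0 and 1988.6 in CbG, 2723.1, 2866.6 and 2045.8 in CA3, and 2348.6, 2023.2 and 2005.5 in CTX. CbG replicate 2 was lowest by a wide margin, and CA1 lay below CA3 and CTX with no overlap. The F test was not passed as labelled or exchanged (limma, adjusted p = 0.281 and 0.0647) and was passed over 10 arrays (limma, adjusted p = 0.00724). The log2 difference of VUL minus RES over 10 arrays was -0.92 ± 0.22 (limma, adjusted p = 0.0115). With CbG replicate 2 left out too it was -0.56 (limma, adjusted p = 0.0425), short of 1.5-fold, while the F test was still passed over these 9 arrays (limma, adjusted p = 0.0137). Exchanged, the difference was -0.61 ± 0.25 (limma, adjusted p = 0.0791), and -0.32 ± 0.17 without CbG replicate 2 (limma, adjusted p = 0.163). The exchanged difference and F test passed when either doubtful array was left out (limma, adjusted p as low as 0.0135 and 0.00795).

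*Gpi* had signals of 2026.4, 2145.8 and 2040.5 in CA1, 2299.9, 1763.8 and 3179.8 in CbG, 3286.0, 3459.2 and 2649.6 in CA3, and 2803.6, 2853.2 and 2663.7 in CTX. The CA1 arrays lay close together below both RES regions, and the 3 highest arrays were the first 2 of CA3 and that labelled CbG replicate 3. CA1 minus CA3 was -0.6 ± 0.26 on the log2 scale as labelled (limma, adjusted p = 0.415) and -0.68 ± 0.2 exchanged (limma, adjusted p = 0.0349, 1.61-fold lower in CA1). The exchanged call was lost without any CA1 array, CA3 replicate 1 or 2, or CTX replicate 1 (limma, adjusted p up to 0.155, differences of -0.8 to -0.57). *Gpi* also passed the exchanged F test, which it did not without CA3 replicate 1 or 2 (limma, adjusted p up to 0.108).

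Counted over the 10 genes, the comparisons of VUL with RES depended on the same 2 arrays. As labelled, 0 of 10 were called by limma, which asks for at least a 1.5-fold difference with an adjusted p under 0.05, as were 0.0% of all probe sets in either direction. At an unadjusted p under 0.05 there were 743 of 7535 probe sets, with *Pfkp* as the 1 of the 10 genes among them (-0.93 ± 0.16, limma, adjusted p = 0.0861). The methods' paired test, at its own unadjusted threshold, called 196 probe sets (2.6%) as labelled, *Pfkp* among them, and 0 after Benjamini-Hochberg adjustment. Exchanged, it called 915 (12.1%), among them *Pfkp*, *Eno1* and *Ldha*. After adjustment 194 were left, with 0 of the 10 genes. Over 10 arrays it called 606 (8.04%), with *Hk1* beside these 3, and 0 after adjustment. By limma with the labels exchanged, 3 of 10 were lower in VUL and 0 higher, where 8.29% of all probe sets were called lower and 10.2% higher. These were *Pfkp* (-0.84 ± 0.15), *Eno1* (-0.71 ± 0.14) and *Ldha* (-1.04 ± 0.16), with limma adjusted p between 0.000387 and 0.00228. These 3 calls were kept when each array was left out in turn (limma, adjusted p up to 0.00863). Over 10 arrays *Hk1* was called as well, 4 of 10 lower beside 9.17% of all probe sets, and 0 higher beside 8.66%. *Eno1*, *Ldha* and *Pfkp* are also among the genes that the study selected on these same arrays, so that their direction is not independent evidence.

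The median log2 difference of VUL minus RES with the labels exchanged was -0.37 over the 10 genes and 0.08 over all probe sets tested. For CA1 minus CA3, 4 of 10 genes were called lower (*Pfkp*, *Eno1*, *Ldha* and *Gpi*) and 0 higher, beside 6.0% and 7.51% of all probe sets, with medians of -0.57 over the 10 genes and 0.01 over all probe sets. The same 4 were called lower over 10 arrays, beside 5.02% of all probe sets lower and 5.48% higher. For CbG minus CTX, 1 of 10 was called lower (*Ldha*) and 0 higher, beside 13.0% and 20.9%, with medians of -0.14 and 0.18. *Ldha* was again the 1 gene called over 10 arrays (12.2% lower, 14.1% higher). As labelled, 0 of 10 were called for CbG minus CTX, beside 0.292% lower and 0.332% higher, and at an unadjusted p under 0.05 there was 1 of the 10, beside 1173 of the 7535 probe sets. Centring on the array median itself moved this last comparison: as labelled, its median over all probe sets was 0.16 with centring and -0.02 without. Among the 4 regions 6 of 10 passed the F test with the labels exchanged beside 67.9% of all probe sets, and 7 of 10 over 10 arrays beside 60.8%, both near the share of the whole array. The difference between the 2 pairs of regions, fitted as an interaction, was passed by 0 of 10 genes in limma as labelled, exchanged or over 10 arrays, with unadjusted p under 0.05 for 1 gene as labelled, 2 exchanged and 1 over 10 arrays, beside 1300 of 7535, 2731 of 7535 and 2224 of 7463 probe sets, so that the 10 genes held no larger share than the array. Of all probe sets this difference was called higher and lower in 0.995% and 1.07% as labelled, 10.8% and 13.3% exchanged, and 7.97% and 6.89% over 10 arrays. The *Pfkp* difference between CA1 and CA3 exceeded that between CbG and CTX by -0.76 ± 0.29 with the labels exchanged (limma, adjusted p = 0.0732).

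**Figure D4:**
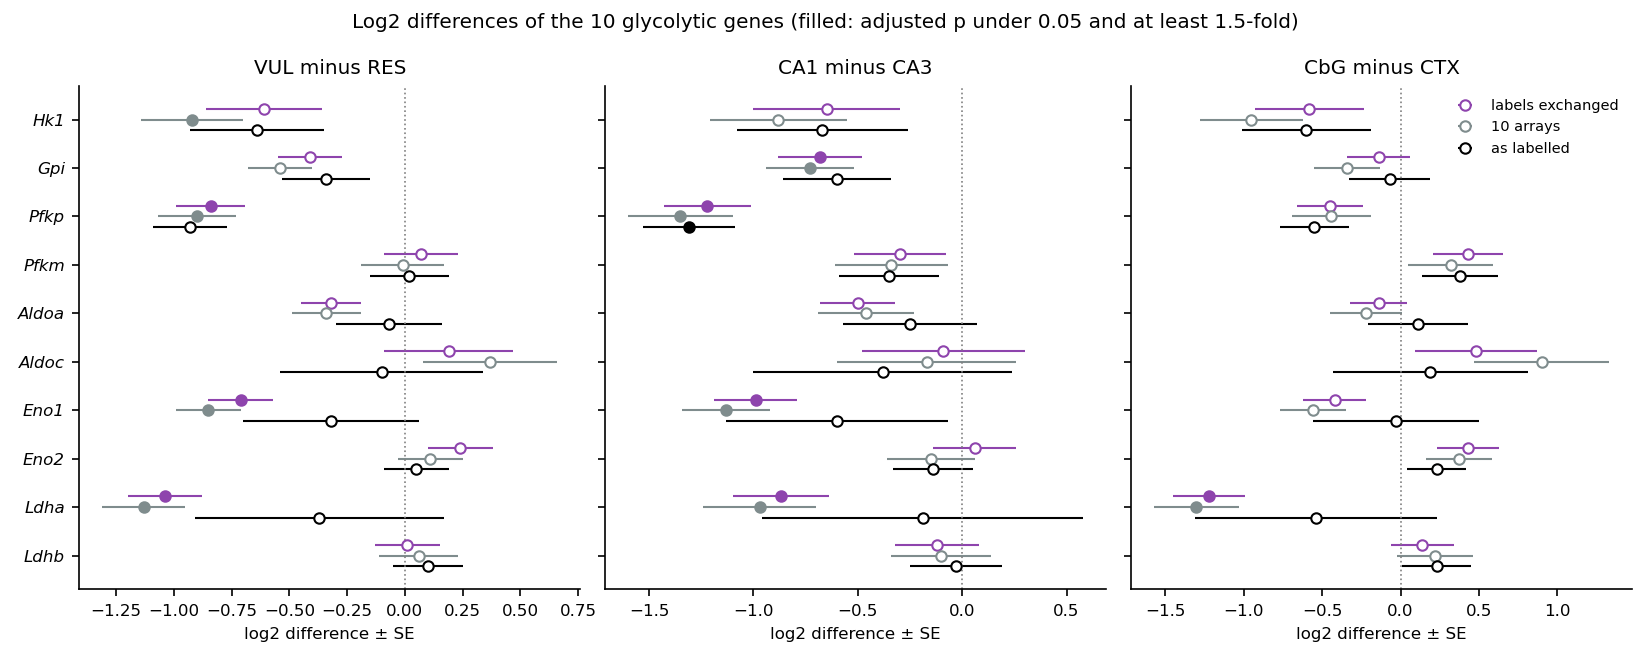
Log2 differences with their standard errors (horizontal axes) of the 10 genes for VUL minus RES, CA1 minus CA3 and CbG minus CTX, with the labels exchanged, over 10 arrays and as labelled; filled points are at least 1.5-fold apart with an adjusted p under 0.05. The *Ldha* point for VUL minus RES lies at -1.04 exchanged and -0.37 as labelled, with standard errors of 0.16 and 0.54, while the *Pfkp* points lie between -0.84 and -0.93.

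The genes whose signals ran most closely with each isozyme over the 12 arrays differed between the partners of a pair. For *Eno1* they were *Acsl4* (r = 0.981), *Asb1* (0.97) and *Gpc1* (0.97), and for *Eno2* they were *Paf1* (0.906), *Ppp1r8* (0.885) and *Tssc4* (0.882). For *Ldha* they were *Astn1* (0.985), *Ipo11* (0.985) and *Dpcd* (0.979). The closest to *Ldhb* were *Mrpl33* (0.933), a mitochondrial ribosomal protein, *Cox7b* (0.894), a subunit of cytochrome c oxidase, and *Slirp* (0.868), which binds mitochondrial RNA. Those closest to *Pfkm* were *Mrps35* (0.927), *Uqcc1* (0.926) and *Chchd2l3* (0.905), the first a mitochondrial ribosomal protein and the second an assembly factor of respiratory complex III. *Pfkp* ran with *Ctnnbip1* (0.943), *Marchf8* (0.926) and *Dusp22* (0.926), *Aldoa* with *Tcf25* (0.943), *Atp6v1b2* (0.936) and *Alg2* (0.931), and *Aldoc* with the ribosomal protein genes *Rps29* (0.95), *Rpl41* (0.938) and *Rpl13a* (0.917). These correlations are over log2 signals of arrays that share regions and the array scale, and are a description. Ribosomal protein genes have many near-identical copies, and their probe sets may bind several.

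Of the other glycolytic enzymes, 12 of 18 were on the array and 5 passed the filter. Of the 5, 0 passed a comparison between regions as labelled in limma, where the F test adjusted p lay between 0.116 and 0.634. With the labels exchanged 4 of 5 passed the F test, beside 67.9% of all probe sets: *Adpgk*, an ADP-dependent glucokinase (limma, adjusted p = 0.0059), *Tpi1*, triosephosphate isomerase (0.00859), *Pgk1*, phosphoglycerate kinase (0.0107), and *Pgam1*, phosphoglycerate mutase (0.0454). *Bpgm*, which makes bisphosphoglycerate, did not (0.5). No one of the 5 was called in VUL minus RES or in a pair of regions, and *Tpi1* was nearest for CA1 minus CA3 (-0.62 ± 0.2, limma, adjusted p = 0.0529).

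Of 8 glucose and lactate carriers, 4 passed the filter. The neuronal glucose transporter *Slc2a3* was lower in CA1 than in CA3 with the labels exchanged (-0.85 ± 0.26, limma, adjusted p = 0.0443), and was -0.81 ± 0.32 as labelled (limma, adjusted p = 0.347). *Slc2a1*, the glucose transporter of the blood-brain barrier and astrocytes, passed the exchanged F test (limma, adjusted p = 0.000236). *Slc2a8* and the lactate carrier *Slc16a1* did not (limma, adjusted p = 0.432 and 0.211).

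Of 7 regulators, 3 passed the filter, and 2 of them were higher in VUL with the labels exchanged, beside 10.2% of all probe sets. *Hif1a*, the oxygen-regulated subunit of HIF-1, differed by 0.88 ± 0.15 (limma, adjusted p = 0.000657), and *Pfkfb2*, which sets the level of an activator of phosphofructokinase, by 0.72 ± 0.18 (limma, adjusted p = 0.008). As labelled they were 0.53 ± 0.32 and 0.49 ± 0.23 (limma, adjusted p = 0.674 and 0.534), and *Pgm1*, phosphoglucomutase, was called in none. The VUL minus RES differences had the opposite sign to those of *Ldha*, *Eno1* and *Pfkp* in the same comparison. With the labels exchanged they were called in 1 pair of regions only. CbG minus CTX was 1.34 ± 0.21 for *Hif1a* (limma, adjusted p = 0.000263) and 1.07 ± 0.25 for *Pfkfb2* (limma, adjusted p = 0.0048), beside 20.9% of all probe sets higher. CA1 minus CA3 was 0.43 ± 0.21 and 0.36 ± 0.25 and was not called (limma, adjusted p = 0.204 and 0.382).

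At the entry of pyruvate into mitochondria, 10 of 13 genes passed the filter. As labelled 1 of 10 passed the F test, beside 3.2% of all probe sets: *Pdk2*, a kinase that turns pyruvate dehydrogenase off (limma, adjusted p = 0.0325). It was lower in CA1 than in CA3 both as labelled (-1.27 ± 0.23, limma, adjusted p = 0.0413) and exchanged (-0.96 ± 0.26, limma, adjusted p = 0.0267). With the labels exchanged it was also higher in CbG than in CTX (1.18 ± 0.26). *Pdk1*, another of these kinases, was then lower in VUL (-0.81 ± 0.17, limma, adjusted p = 0.0027), in CA1 than in CA3 (-0.8 ± 0.23) and, by -0.81 ± 0.23, in CbG than in CTX. Its signals were low, 276.0, 151.9 and 118.9 in CA1 and at most 468.2 on any array, where the array medians were 145.5 to 199.3. The F test was also passed by *Pdk3* (limma, adjusted p = 0.000349) and by the dehydrogenase subunits *Pdha1* (0.000446), *Pdhb* (0.0113) and *Dld* (0.0113), and 7 of 10 genes passed in all, beside the 67.9% of all probe sets.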

How the data were processed

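The authors deposited 1 linear MAS5 intensity per probe set and array, scaled to a target of 500 (trimmed means between 500.1 and 500.2). The submitters' processing notes name MAS5 with no version. Probe intensities and detection calls were not used here, and the number of arrays, 12, limits the precision. The members and gene lists were chosen with earlier results of these data known. After a log2 transformation each array was centred on its median, and probe sets were filtered (above the median of the array in at least 8 of 12 arrays, 7535 probe sets, or 7463 by the same share of 10 arrays). They were fitted in limma 3.58.1 (R 4.3.3) with region means and the replicate number as a block. The methods describe 4 populations taken per animal and a paired test, but do not tie the deposited numbers to individual rats, so that equal numbers may not share a rat and p-values measure the spread between these arrays. Deviations of same-numbered arrays from their region means correlated at -0.04 on average as labelled and 0.017 exchanged. Adjusted p-values follow Benjamini and Hochberg over all probe sets tested, with 0.05 and 1.5-fold as thresholds, and the F test covers the 4 regions. Ratios were tested by exact permutation within replicate numbers in Python 3.11.15 (numpy 2.4.6), adjusted over 4 ratios. Both procedures were tested on simulated data. Probe sets were named through a gene table of the array, which gives 12789 of them 1 symbol. For each gene the probe set with the highest mean signal was used. Genes named are the 10 members, up to 6 of each pathway list by F test, and for each isozyme the 3 closest in signal; marker genes shown for *Aldoc* were picked after their values were seen. Promoter windows were taken from RefSeq (GRCr8) by symbol. Isozymes and pseudogenes are similar in sequence, and binding of one transcript to the probes of another was not tested. Labels were exchanged, and arrays left out, as alternatives, of which those with CbG replicate 2 left out beside the exchange or beside both doubtful arrays, with the exchange and no block, or with 1 array left out after the exchange were added after seeing the data.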

Additional observations from a re-analysis of the deposited data

Results flagged for a closer look

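Of 56 groups of 6 arrays examined for a single distant array, 4 had one. The groups share arrays between the 2 arrangements of labels and each joins 2 regions, so that a chance rate of about 1 in 20 does not apply. All 4 concern the array CbG replicate 2 in the VUL group, as labelled and with the labels exchanged. Its *Hk1* signal was the lowest, with a gap to the nearest array of 0.757 of the whole range of the group as labelled and 0.736 exchanged. Its *Aldoc* signal was the highest, with a gap of 0.647 of the range both as labelled and exchanged. The same array had the highest summed Purkinje cell marker signal, 37255.5, whose part in either value was not tested.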

How the results depend on the processing

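With the 2 doubtful labels exchanged 12 of 40 single-gene results passed that did not as labelled, and 14 without both arrays. Calls rose over the whole array too. The F test was passed by 3.2% of all probe sets as labelled, 67.9% exchanged and 60.8% over 10 arrays. For VUL minus RES 0.0% were called in either direction as labelled. Exchanged, 8.29% were called lower and 10.2% higher, and over 10 arrays 9.17% and 8.66%. The shares for the 2 pairs of regions, given above, rose as well. No such share is given for the other settings. The number of the 10 genes that differed among the 4 regions, 1 as labelled, was 6 exchanged and 7 over 10 arrays, and for VUL against RES, 0 as labelled, it was 3 and 4. For CA1 against CA3 it was 1 as labelled and 4 in both, and for CbG against CTX 0 as labelled and 1 in both. With CbG replicate 2 left out too, these were 6, 3, 4 and 1 exchanged and 6, 3, 5 and 1 over the remaining 9 arrays. Without the filter on low signals 0 genes passed among the regions and 0 for CA1 against CA3. Quantile normalization and the methods' t-test each called 1 gene for VUL against RES. Without the replicate block 1 gene was called for VUL against RES, *Pfkp*, and exchanged without the block the 4 counts were 6, 3, 4 and 1. Permuting over all arrays without the replicate block kept the *Pfkp* to *Pfkm* difference of 2.0 (adjusted p = 0.00156). On exchanged labels without the block all 4 ratios differed among the regions, as with it (adjusted p up to 0.00461), and *Eno1* to *Eno2* passed for VUL minus RES as well (-0.95, adjusted p = 0.0346). Leaving out 1 array or replicate number gave counts of 0 to 7 among the regions, 0 to 4 for VUL against RES, 0 to 3 for CA1 against CA3 and 0 to 1 for CbG against CTX.

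The range of region means of the *Eno1* to *Eno2* ratio, not past the threshold as labelled, was past it at 1.78 exchanged, 1.8 over 10 arrays, and 1.68 and 1.65 with CbG replicate 2 left out too. Over 10 arrays its VUL minus RES difference was -0.95 (exact permutation, adjusted p = 0.0139). Exchanged and without CbG replicate 2 it was -0.89 and not past the threshold (exact permutation, adjusted p = 0.0926). For *Ldha* to *Ldhb* the 4 ranges past the threshold were 2.3, 2.58, 2.22 and 2.6. For *Aldoa* to *Aldoc* they were 2.38, 2.76 and 1.76, the fourth setting staying short of it. As labelled, with 1 array or replicate number left out, the *Aldoa* to *Aldoc* range was 1.3 to 2.76. Of these settings it passed only without CbG replicate 3 (2.6, exact permutation, adjusted p = 0.0417). Exchanged, that ratio passed without each array but CA3 replicate 2 (adjusted p = 0.0608). The *Pfkp* to *Pfkm* range was 2.57 and no longer past the threshold with the other *Pfkm* probe set, and between 1.88 and 2.11 with 1 array or replicate number left out. Over 2 replicate numbers (1.93 to 2.04) the smallest exact p is 0.0417, too large for 1 ratio alone to pass after adjustment. Among single genes no called value changed sign, and 78 of 1120 values changed sign while called in neither setting. The cause of these changes was not tested.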
